A study of Mus musculus with 6 samples.

Results

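The genes described here are *Ace*, *Agt*, *Agtr1a*, *Agtr2*, *Edn1*, *Edn3*, *Ednra*, *Ednrb* and *Ece1*, 9 genes of the renin-angiotensin and endothelin systems in the mouse heart. They were chosen by gene name, with every non-control probe that the array annotation gives to each of them, which came to 14 probes of 56605 on the array and 9 genes of 27307. The series holds 6 hearts of male C57BL/6J mice, 3 that received AAV NEXN-WT and 3 that received AAV NEXN-S437E, measured on 1 Agilent array each. NEXN (nexilin) is an actin-binding protein of the cardiac Z-disc, and S437E puts a glutamate in place of a serine, a change commonly used to imitate phosphorylation. All 6 mice were *Clk4*-cKO, that is, they carried loxP-flanked *Clk4* (*Clk4* fl/fl) and the *α-MHC-MerCreMer* transgene, in which the α-MHC promoter confines the tamoxifen-inducible Cre to cardiomyocytes. Both vectors were AAV serotype 9 given intravenously, with mouse *Nexn* and GFP behind a CMV promoter, which is not restricted to heart cells. By the study's methods, the vectors went into young mice slightly below the ages named for the start of tamoxifen, and the methods place the study of the knockout's heart phenotype some weeks after tamoxifen began without naming the arrayed hearts. The comparison therefore asks how these genes differed between hearts given the phosphomimetic and hearts given the wild-type protein, all from *Clk4*-cKO mice. Hearts with *Clk4* or with an empty vector were not analysed here.

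The renin-angiotensin system starts from angiotensinogen (*Agt*), which renin cuts to angiotensin I. Angiotensin-converting enzyme (*Ace*), bound to the surface of endothelial cells, cuts angiotensin I to angiotensin II, and the type 1 receptor (*Agtr1a* in the mouse) carries its effects on blood pressure, hypertrophy and fibrosis, while the type 2 receptor (*Agtr2*) is commonly described as opposing them. Endothelin-1 (*Edn1*), made largely by endothelial cells, is a strong vasoconstrictor. Endothelin-converting enzyme 1 (*Ece1*) cuts it from its precursor, and the receptors ETA (*Ednra*) and ETB (*Ednrb*) bind it. *Edn3* encodes endothelin-3, known mainly for the development of enteric neurons and melanocytes. The type 1 angiotensin receptor and the endothelin receptors couple to Gq proteins. Drugs that block angiotensin II formation or its type 1 receptor are standard treatments of heart failure.

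The probes of the 4 members with the largest differences are shown by their first 30 of 60 bases, since each of these genes was read by 1 probe and the value of the gene is the value of that probe. On mm9, the build of the deposited annotation, the *Agt* probe lies at chr8:127080661-127080720 on the minus strand. The *Ace* probe lies at chr11:105850398-105850457, the *Agtr1a* probe at chr13:30474638-30474697 and the *Edn1* probe at chr13:42403101-42403160, all on the plus strand. The probes were not placed in exons or introns here.
*Agt* probe: cgtctccttggagactgcgctgaccgagaa
*Ace* probe: atgggggacatggtgtttgagtggaacata
*Agtr1a* probe: tcctccacatatatgtacatatgtatctct
*Edn1* probe: cagtaaaaatatgttcccgtatgtattgta

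The stretches before the gene starts are shown for the 3 of these 4 members with an entry in the RefSeq promoter table (GRCm38.p6). Each is the 250 bases before the start, 5′ to 3′ on the gene's strand, at chr8:124569707-124569956 (*Agt*, minus strand), chr11:105967698-105967947 (*Ace*, plus strand, the first of 2 starts listed) and chr13:42301226-42301475 (*Edn1*, plus strand). Capitals mark matches to TATAAA, the TATA box core, or CCAAT on either strand. The AP-1 site TGACTCA and the GATA site AGATAA were also searched, with no match on either strand of these 3 windows, and no 2 matches overlapped.
*Agt*: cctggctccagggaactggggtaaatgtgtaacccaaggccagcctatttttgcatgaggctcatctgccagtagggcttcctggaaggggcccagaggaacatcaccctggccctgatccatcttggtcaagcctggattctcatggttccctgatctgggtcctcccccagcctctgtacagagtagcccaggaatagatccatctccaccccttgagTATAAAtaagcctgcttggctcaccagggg
*Ace*: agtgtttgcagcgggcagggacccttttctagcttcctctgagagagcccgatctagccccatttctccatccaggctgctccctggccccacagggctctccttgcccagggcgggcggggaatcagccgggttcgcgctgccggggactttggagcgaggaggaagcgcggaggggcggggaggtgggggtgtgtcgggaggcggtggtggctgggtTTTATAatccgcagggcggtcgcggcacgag
*Edn1*: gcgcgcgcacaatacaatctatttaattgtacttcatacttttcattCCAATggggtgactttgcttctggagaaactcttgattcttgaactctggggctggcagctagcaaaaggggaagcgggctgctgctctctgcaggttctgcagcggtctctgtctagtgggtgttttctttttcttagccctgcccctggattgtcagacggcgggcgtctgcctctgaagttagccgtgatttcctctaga
The *Agt* window held TATAAA from base 30 to base 25 before the start, and the first *Ace* window held its reverse complement from base 31 to base 26. TATAAA was in 12.4% and CCAAT in 33.8% of the 32851 windows of this length in the table, TGACTCA in 4.46% and AGATAA in 9.99%. *Agt*, which was higher with S437E, and *Ace*, which was lower, thus both held these letters at a like distance from the start, which describes the letters and no binding.

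Of the 14 probes, 9 probes of 7 genes passed the detection filter, which asked for a group with all 3 arrays well above background, and were tested among 22998 probes. Each of these 9 was above background on all 6 arrays. Values below are log2 processed signals minus the 75th percentile of the same array, so that 0 is the 75th percentile, and a difference is NEXN-S437E minus NEXN-WT. Values of different probes are not set against each other, since probes differ in how strongly they bind. Slide row 1 held NEXN-S437E replicate 1 and all NEXN-WT arrays, and slide row 2 held NEXN-S437E replicates 2 and 3. NEXN-WT replicate 1 stood apart, with a mean absolute difference over the tested probes of 0.38 and 0.44 from the other 2 NEXN-WT arrays and 0.50 to 0.56 from the NEXN-S437E arrays, against 0.19 to 0.33 between any 2 of the other 5. Results are therefore given with and without it. The cardiomyocyte markers, 8 of 8, were well above background on every array. *Clk4* differed by 0.13 (adjusted p = 0.706, limma), which is no check of the deletion because both groups carry it, and the 2 *Nexn* probes differed by 0.02 and 0.14 (adjusted p = 0.977 and 0.737, limma) and do not separate the vector from the mouse's own gene.

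The members did not move as 1 block. *Agt* and *Agtr1a* were higher with NEXN-S437E, by 1.73-fold and 1.70-fold, *Ace* and *Edn1* were lower, by 1.54-fold and 1.58-fold, and *Ednra*, *Ednrb* and *Ece1* had differences of at most 0.20 on the log2 scale in either direction. At an unadjusted p of 0.05 in limma, 2 member probes were higher, against 10.5% of all tested probes, and 2 were lower, against 6.7%. No member passed an adjusted p of 0.05, which 0.161% of the tested probes did, and none passed the study's thresholds, a 2-fold change with an unadjusted p of 0.05, which 2.52% did. The median difference was -0.06 over the 9 member probes and 0.09 over all tested probes. Of all probes under the unadjusted p, 61.1% were higher with S437E, against 48.6% after quantile normalization and 48.0% with the percentile taken over detected probes, so the scaling moved the balance of all probes, and the 4 members kept their direction and an unadjusted p under 0.05 under both.

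**Figure D1:**
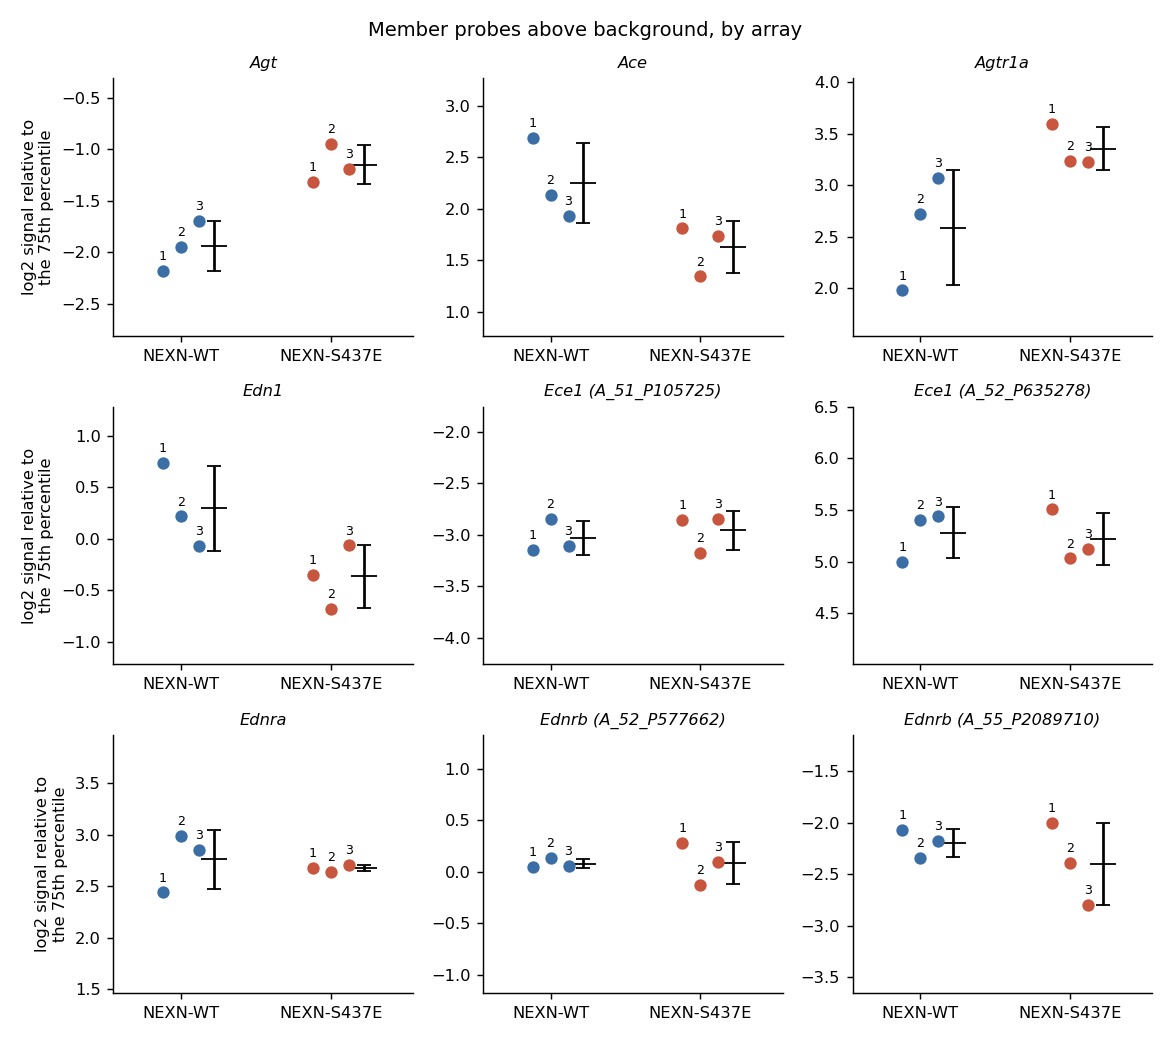
Log2 signal relative to the array's 75th percentile (vertical axis, each panel spanning the same range) for the 9 tested member probes in NEXN-WT (blue) and NEXN-S437E (red), 1 point per array labelled with its replicate number, with the mean and SD of 3 arrays beside them. *Agt* and *Agtr1a* are higher and *Ace* is lower on all 3 NEXN-S437E arrays, *Edn1* touches between the groups, and the other 5 probes overlap.

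*Agt*, the precursor of all angiotensin peptides, gave -2.18, -1.95 and -1.70 with NEXN-WT and -1.32, -0.95 and -1.19 with NEXN-S437E. Every NEXN-S437E heart was above every NEXN-WT heart. The means were -1.94 ± 0.24 (SD, n = 3) and -1.15 ± 0.19 (SD, n = 3), a log2 difference of 0.79 (SE 0.18, 95% interval 0.38 to 1.20, unadjusted p = 0.0023, adjusted p = 0.133, limma). *Agt* ranked 396 by p among the 22998 probes and was the member with the smallest p. The signals before scaling were low, 45.3 to 60.1 units with NEXN-WT and 44.3 to 82.8 with NEXN-S437E, and overlapped, so the groups separated only after the arrays were scaled. The 75th percentile itself was 154 to 273 units with NEXN-WT and 110 to 160 with NEXN-S437E. Without NEXN-WT replicate 1 the difference was 0.67 (unadjusted p = 0.00551, limma), and within slide row 1, where only NEXN-S437E replicate 1 stands for its group, it was 0.63 (unadjusted p = 0.0439 with slide row as a block). *Agt* kept an unadjusted p under 0.05 in all 19 alternative settings, with differences of 0.54 to 0.91.

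*Ace*, which forms angiotensin II and degrades bradykinin, went the other way. Its values were 2.69, 2.13 and 1.93 with NEXN-WT and 1.81, 1.34 and 1.73 with NEXN-S437E. NEXN-WT replicate 1 was the highest of the 6, and the lowest NEXN-WT array stayed above the highest NEXN-S437E array by a small margin. The means of 2.25 ± 0.39 (SD, n = 3) and 1.63 ± 0.25 (SD, n = 3) gave a difference of -0.62 (SE 0.23, 95% interval -1.15 to -0.09, unadjusted p = 0.0268, adjusted p = 0.240, limma). Leaving out NEXN-WT replicate 1 left -0.40 (unadjusted p = 0.0632, limma), leaving out NEXN-S437E replicate 2 left -0.48 (unadjusted p = 0.0991, limma), and within slide row 1 the difference was -0.44 (unadjusted p = 0.229 with slide row as a block). The direction was the same in all 19 settings.

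*Agtr1a*, the receptor through which angiotensin II raises vascular tone and drives growth of the heart, gave 1.98, 2.72 and 3.07 with NEXN-WT and 3.60, 3.24 and 3.23 with NEXN-S437E. The NEXN-S437E arrays lay close together and above all NEXN-WT arrays, which spread over more than 1 unit with replicate 1 as the lowest. The means were 2.59 ± 0.56 (SD, n = 3) and 3.35 ± 0.21 (SD, n = 3), a difference of 0.76 (SE 0.28, 95% interval 0.13 to 1.40, unadjusted p = 0.0243, adjusted p = 0.234, limma). Without NEXN-WT replicate 1 the difference shrank to 0.46 with an unadjusted p of 0.0425 (limma). It was 0.64 without NEXN-S437E replicate 1 (unadjusted p = 0.0836, limma) and 1.01 within slide row 1 (unadjusted p = 0.0423 with slide row as a block). The mouse has a second type 1 receptor gene, *Agtr1b*, neither probe of which was well above background on any array.

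*Edn1*, the endothelin made in the heart and its vessels, gave 0.74, 0.22 and -0.07 with NEXN-WT and -0.35, -0.68 and -0.06 with NEXN-S437E. NEXN-WT replicate 1 was the highest and NEXN-S437E replicate 2 the lowest, and the groups met where NEXN-WT replicate 3 fell just under NEXN-S437E replicate 3. The means of 0.30 ± 0.41 (SD, n = 3) and -0.36 ± 0.31 (SD, n = 3) gave a difference of -0.66 (SE 0.25, 95% interval -1.23 to -0.09, unadjusted p = 0.0282, adjusted p = 0.245, limma). Leaving out NEXN-WT replicate 1 gave -0.44 (unadjusted p = 0.0788, limma) and leaving out NEXN-WT replicate 2 gave -0.70 (unadjusted p = 0.0512, limma). On the other side, the difference was -0.67 when NEXN-S437E replicate 1 was dropped (unadjusted p = 0.0617, limma) and -0.50 when NEXN-S437E replicate 2 was (unadjusted p = 0.102, limma). Within slide row 1 it was -0.65 (unadjusted p = 0.132 with slide row as a block). *Edn1* was thus the least steady of the 4, with its direction kept in all 19 settings and its unadjusted p over 0.05 in 6 of them.

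Of the 9 tested member probes, 3 did not overlap between the groups (*Agt*, *Agtr1a* and *Ace*), as did 27.8% of all tested probes. An exact two-sided permutation test over the 6 arrays gave p = 0.1 for each of these 3, which is the smallest value that 3 against 3 arrays allow, and p = 0.2 for *Edn1*. In the normalized log2 values that the authors deposited, the same 3 probes did not overlap, and the differences were 0.78 for *Agt*, 0.68 for *Agtr1a*, -0.69 for *Ace* and -0.67 for *Edn1*.

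**Figure D2:**
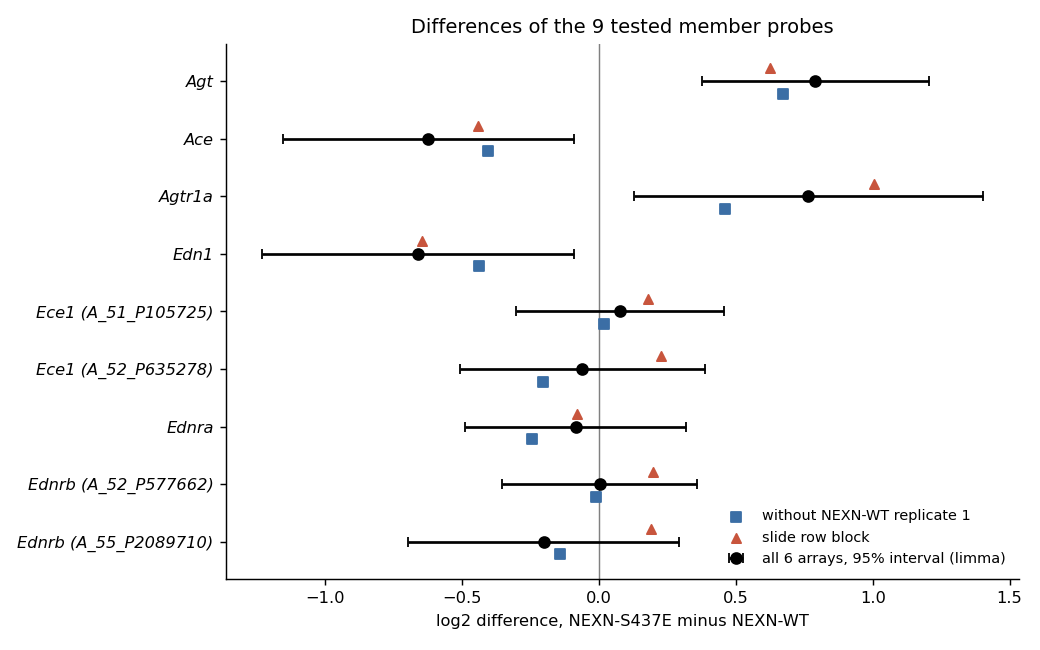
Log2 difference of NEXN-S437E minus NEXN-WT (horizontal axis) for the 9 tested member probes, with black points and 95% intervals from limma on all 6 arrays, blue squares for the value without NEXN-WT replicate 1 and red triangles for the value with slide row as a block. The intervals of *Agt*, *Ace*, *Agtr1a* and *Edn1* leave out 0, and those of *Ece1*, *Ednra* and *Ednrb* include it.

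The enzyme and receptors of the endothelin system gave small differences with wide intervals. For *Ece1*, which releases endothelin-1 from its precursor, probe A_52_P635278 (chr4:137521065-137521124 on mm9) gave 5.0, 5.41 and 5.44 with NEXN-WT and 5.51, 5.03 and 5.12 with NEXN-S437E. The groups overlapped, and the difference was -0.06 (95% interval -0.51 to 0.39, adjusted p = 0.884, limma). The other tested *Ece1* probe (A_51_P105725, chr4:137512407-137512466) had a difference of 0.08 (95% interval -0.30 to 0.46, adjusted p = 0.824, limma). The 2 probes thus differed in sign, each by less than its SE.

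*Ednra*, the receptor that mediates constriction of smooth muscle, gave 2.44, 2.99 and 2.85 with NEXN-WT and 2.68, 2.64 and 2.70 with NEXN-S437E (probe A_52_P156190, chr8:80186985-80187044, minus strand). The NEXN-S437E arrays lay within the range of the NEXN-WT arrays. The difference was -0.08 (95% interval -0.49 to 0.32, adjusted p = 0.817, limma).

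*Ednrb*, the receptor found mainly on endothelial cells, was read by 2 tested probes. Probe A_52_P577662 (chr14:104214484-104214543, minus strand) gave 0.05, 0.13 and 0.06 with NEXN-WT and 0.28, -0.13 and 0.10 with NEXN-S437E. Its means were alike, and the difference was 0.00 (95% interval -0.35 to 0.36, adjusted p = 0.993, limma). Probe A_55_P2089710 (chr14:104220870-104220929, minus strand) gave a difference of -0.20 (95% interval -0.70 to 0.29, adjusted p = 0.632, limma). Of the 5 intervals of *Ece1*, *Ednra* and *Ednrb*, only this last one reached the differences seen for *Ace* and *Edn1*, and a p over the threshold does not show that the receptors were alike in the 2 groups.

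The other 5 member probes were not tested. *Agtr2* (chrX:21065805-21065864), *Edn3* (chr2:174608971-174609030), probe A_51_P417991 of *Ednra* (chr8:80184559-80184618) and probe A_51_P466423 of *Ece1* (chr4:137472100-137472159) were not well above background on any of the 6 arrays, so no fold is given for them. *Agtr2* ranged from -6.13 to -4.83 and *Edn3* from -5.79 to -5.12, while the lowest signals that counted as well above background on these arrays lay between -4.0 and -3.08. The third *Ednrb* probe (A_55_P2740239, chr14:104215479-104215538) was well above background on 1 array, NEXN-WT replicate 1, at -3.70.

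**Figure D3:**
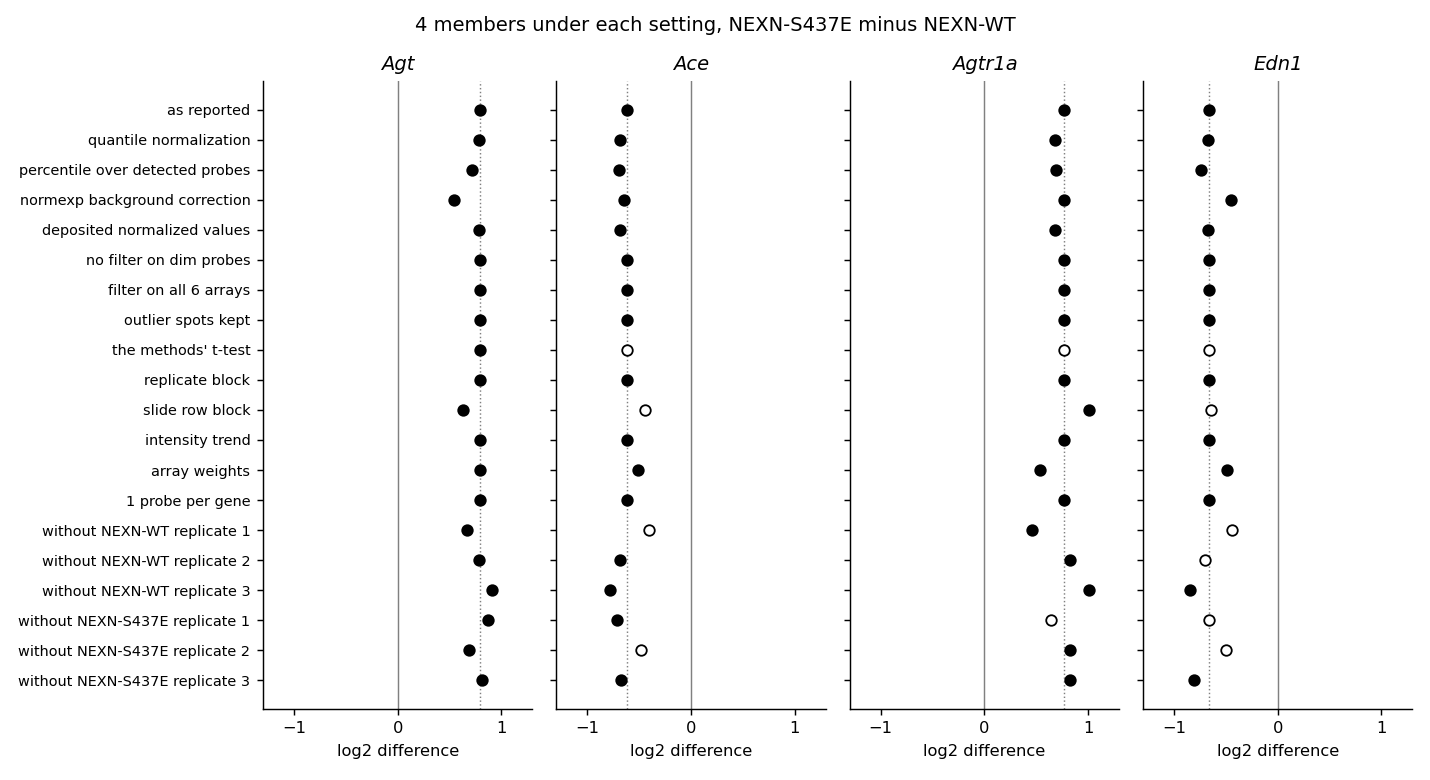
Log2 difference of NEXN-S437E minus NEXN-WT (horizontal axes) for *Agt*, *Ace*, *Agtr1a* and *Edn1* as reported and under each of 19 alternative settings (vertical axis), with points filled where the unadjusted p was under 0.05 and the dotted line at the reported value. *Agt* is filled in every setting, *Agtr1a* is open in 2, *Ace* in 4 and *Edn1* in 6, and no gene changes sign.

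The members come from different cell types, and in RNA of whole myocardium fewer cells of a type and less RNA per cell cannot be told apart. Of the markers of endothelial cells, where *Ace* and *Edn1* are mostly made, 1 of 9 was lower at an unadjusted p of 0.05 (*Cldn5*) and none higher, against 7.91% lower and 10.1% higher over 13747 genes with 1 probe each, which are the background shares for the other marker lists too. The summed level of the list, in which the brightest probes weigh most, was 121 to 158 times the 75th percentile with NEXN-WT and 131 to 177 times with NEXN-S437E, with *Pecam1* and *Cdh5* differing by 0.05 and 0.02 (adjusted p = 0.904 and 0.968, limma). Of the fibroblast markers, 4 of 7 were lower and none higher (summed level 789 to 986 against 758 to 795). Without NEXN-WT replicate 1, 3 of 7 were lower. *Pdgfra* and *Col1a2* were among the lower ones. *Gsn* went the other way, by 0.24 without overlap between the groups (adjusted p = 0.396, limma). *Tcf21* and *Dcn* differed by -0.28 and -0.08 (adjusted p = 0.462 and 0.777, limma). The median difference of the list was -0.73. It was -0.58 with slide row as a block, a fit in which NEXN-S437E replicate 1 alone stands for its group. Of the cardiomyocyte markers, 4 of 8 were higher (summed level 1582 to 2053 against 2445 to 2548), 3 of 8 without NEXN-WT replicate 1 and 0 of 8 both after quantile normalization and with slide row as a block. Of the smooth muscle and pericyte markers, 1 of 8 was higher (*Abcc9*) and 1 lower (*Pdgfrb*), with none lower without NEXN-WT replicate 1 and none in either direction with slide row as a block. Of the 3 T cell markers above background on all 6 arrays, 2 were lower (*Cd3d* and *Cd3e*). *Cd3d* differed by -2.49 (adjusted p = 0.0221, limma), with adjusted p of 0.0327 to 0.0861 when 1 array was left out. *Cd4* went the other way, by 0.22 (adjusted p = 0.464, limma). *Cd3e* had an unadjusted p of 0.055 after quantile normalization (limma). *Cd3g* was above background on all 3 NEXN-WT arrays and on 0 with NEXN-S437E, so it was tested only through the group where it was high and is not counted. No tested macrophage, endocardial or erythroid marker passed, although the summed erythroid level ranged from 29.0 to 323 among the NEXN-S437E arrays. The median difference was 0.36 for the erythroid and -0.02 for the endocardial markers. With slide row as a block these were 2.36 and 0.30. Of the lists for other cells, 1 of 2 tested mast cell markers (*Tpsb2*) and 1 of 3 Schwann cell markers (*S100b*) were higher. *Kit*, the other tested mast cell marker, went the other way, by -0.32 without overlap between the groups (adjusted p = 0.339, limma). The 2 tested mesothelial markers and 1 melanocyte marker did not pass. *Lep*, the only tested adipocyte marker, was above background on all 3 NEXN-WT arrays and on 2 with NEXN-S437E and is not counted. Median differences were 0.17 (mast cell), 0.58 (Schwann cell) and 0.48 (mesothelial). With slide row as a block they were 0.23, 0.93 and 1.02. *Plin1* and *Tyr*, defining markers of adipocytes and melanocytes, were not well above background on any array, and *Adipoq*, *Upk3b* and *Cd8a* did not pass the filter. With 1 array left out in turn, the unadjusted p was over 0.05 in 4 of 6 fits for *Cldn5*, 5 for *Pdgfrb*, 1 for *Abcc9*, 4 for *Cd3e*, 3 for *S100b* and 0 for *Tpsb2*. The part of any of these cell types in the differences of the members was not tested.

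Among the other peptidases that make or degrade angiotensins and related peptides, 14 of 16 were tested. None was higher and 1 was lower at an unadjusted p of 0.05, against the same 10.1% and 7.91% over all genes. That gene was *Anpep*, aminopeptidase N, which trims angiotensin III (difference -0.79, SE 0.32, adjusted p = 0.262, limma). NEXN-S437E replicate 1 was its lowest array at -0.58, against 0.61 and 0.42 in the others of its group. The difference was -0.42 without that array (unadjusted p = 0.0907, limma), and over the 6 fits that left out 1 array it was -1.02 to -0.42, with an unadjusted p of 0.0159 to 0.124 that was over 0.05 in 3. With slide row as a block it was -1.52 (unadjusted p = 0.00099, limma). *Thop1* and *Lnpep*, which also cut angiotensin peptides, gave 0.05 and -0.06 (adjusted p = 0.869 and 0.834, limma). *Ctsg* was detected on no array, and renin (*Ren1*) was well above background on 3 of 6, not all of 1 group, and was not tested. The median difference of the list was 0.13, against 0.07 over all 13747 genes.

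Of the other receptors and partners, 3 of 7 were above background on all 6 arrays and none of these passed the unadjusted p. *Mtus1*, an interaction partner of the type 2 receptor, differed by 0.00 and *Agtrap*, which promotes internalisation of the type 1 receptor, by 0.03 (adjusted p = 0.991 and 0.925, limma). *Bdkrb2*, a bradykinin receptor, was above background on all 3 NEXN-WT arrays and on 1 with NEXN-S437E, so it was tested only through NEXN-WT and is not counted. The receptors *Mas1* and *Bdkrb1* were well above background on at most 2 arrays and were not tested. The only other endothelin gene that could be tested was *Ece2*, a second converting enzyme, with a difference of 0.25 and overlapping groups (adjusted p = 0.487, limma), while *Edn2* was detected on no array.

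The adrenal genes of aldosterone synthesis, *Cyp11b1* and *Cyp11b2*, were not well above background on any array, and neither was *Hsd11b2*, which protects the mineralocorticoid receptor from glucocorticoids. Of the 3 tested genes of this list 2 were higher at the unadjusted p, against 10.1% of all genes, and 1 both without NEXN-WT replicate 1 and with slide row as a block. *Hsd11b1*, which regenerates active glucocorticoid in tissues, gave 1.27, 2.31 and 2.90 with NEXN-WT and 3.65, 3.41 and 3.66 with NEXN-S437E. Every NEXN-S437E value was above every NEXN-WT value. Its difference was 1.41 (SE 0.36, adjusted p = 0.152, limma), and 0.97 without NEXN-WT replicate 1. *Nr3c2*, the mineralocorticoid receptor, differed by 0.36 (SE 0.15, adjusted p = 0.278, limma), and its unadjusted p was over 0.05 in 5 of the 6 fits that left out 1 array (0.0309 to 0.102). *Sgk1*, a kinase induced through that receptor, differed by 0.00 (adjusted p = 0.996, limma).

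Downstream of the receptors, 22 genes of Gq coupling were tested (G proteins, phospholipases C, protein kinases C, IP3 receptors, receptor kinases, arrestins and RGS proteins). At the unadjusted p, 1 was higher and 2 were lower, against the 10.1% and 7.91% over all genes given above, and the median difference was -0.27 against 0.07. The lower count was 4 after quantile normalization and 5 with slide row as a block. *Rgs2*, which shortens signalling by Gq and is known as a brake on angiotensin II responses, gave 2.42, 2.52 and 2.33 with NEXN-WT and 3.60, 3.57 and 3.52 with NEXN-S437E. The 2 groups were far apart with little spread within either. Its difference of 1.14 (SE 0.14) passed the adjusted p (0.0254, limma). When 1 array was left out it was 1.09 to 1.19, with adjusted p of 0.0269 (without NEXN-WT replicate 1) to 0.161, and the adjusted p was 0.052 after quantile normalization and 0.132 with slide row as a block. *Prkca* (protein kinase C alpha) and *Grk5* (a kinase that desensitises receptors) differed by -0.60 and -0.48 (adjusted p = 0.198 and 0.217, limma). *Adrbk1* and *Plcb1* differed by -0.02 and -0.06 (adjusted p = 0.962 and 0.892, limma).

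Of 19 genes that angiotensin II or endothelin-1 is known to induce in the heart, hypertrophy markers and matrix genes that many other signals also induce, 17 were above background on all 6 arrays. At the unadjusted p, 10 of these 17 were lower and none higher, against 6.84% lower and 9.95% higher over the 12923 genes above background on all 6 arrays. The count was 10 without NEXN-WT replicate 1 and 7 with slide row as a block. *Nox4*, an oxidase subunit, was above background on all 3 NEXN-WT arrays and on 0 with NEXN-S437E, and *Spp1* on 3 and 2, so both were tested only through NEXN-WT and are not counted. The natriuretic peptide gene *Nppa* fell by 1.39 (adjusted p = 0.0254, limma), the only one of the 17 past the adjusted p with all 6 arrays. Its adjusted p was 0.0376 to 0.149 when 1 array was left out, 0.052 after quantile normalization and 0.171 with slide row as a block. Without NEXN-WT replicate 1, 6 of the 17 passed (*Nppa*, *Col1a1*, *Col3a1*, *Timp1*, *Postn* and *Acta1*), with adjusted p of 0.00532 to 0.0376 (limma). Over all probes, 128 passed the adjusted p in that fit, against 37 with all 6 arrays. *Myh7* differed by -2.33, *Col3a1* by -1.34, *Col1a1* by -1.82, *Timp1* by -2.46 and *Postn* by -2.98, with adjusted p of 0.0815 to 0.112 (limma). Without NEXN-WT replicate 1 these were -1.91, -1.09, -1.45, -1.91 and -2.13. *Nppb* and *Acta2* differed by 0.04 and 0.04 (adjusted p = 0.924 and 0.960, limma). *Agt* and *Agtr1a* were thus higher in hearts where 10 of these 17 genes were lower, and *Ace* and *Edn1* were lower there as well.

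**Figure D4:**
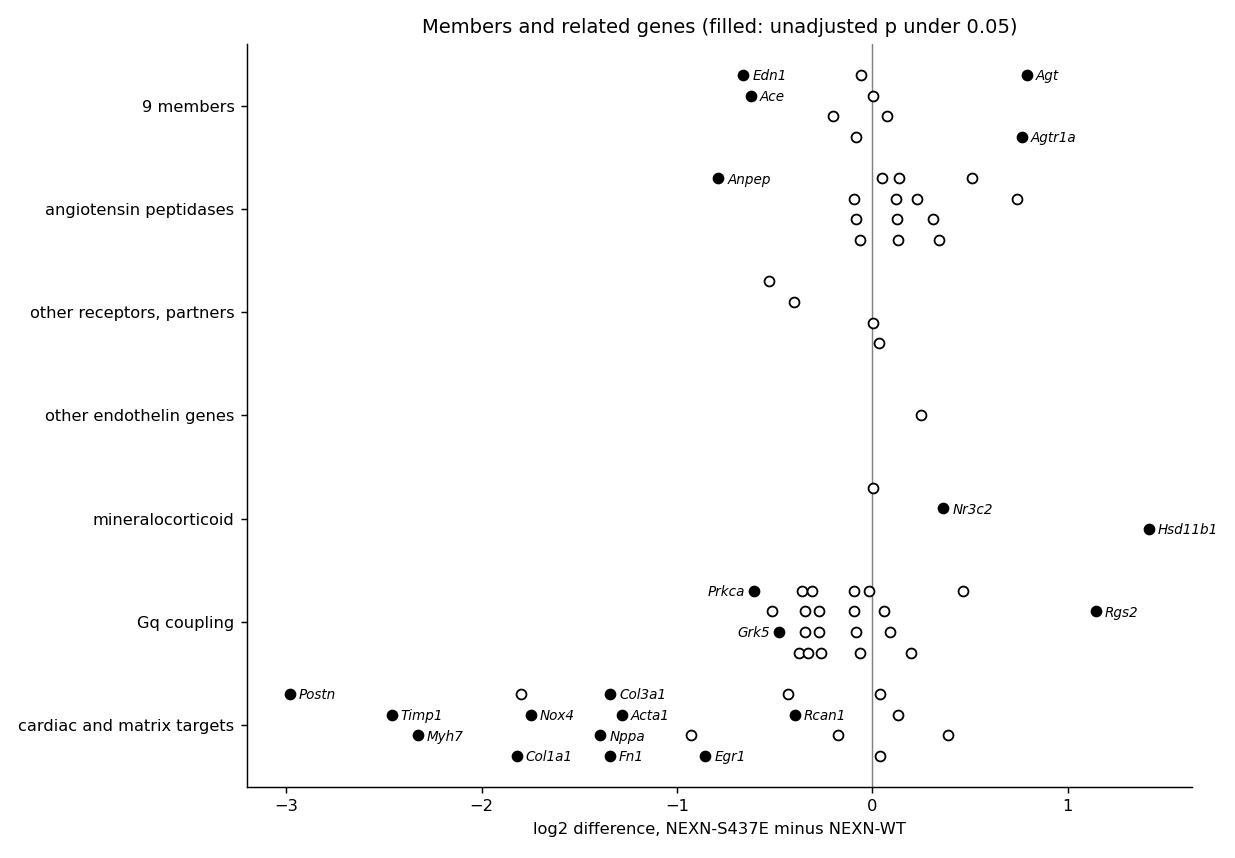
Log2 difference of NEXN-S437E minus NEXN-WT (horizontal axis) for the tested member probes and the tested genes of 6 related lists (vertical axis, points spread for legibility), filled and named where the unadjusted p was under 0.05. The cardiac and matrix targets reach -2.98 (*Postn*) and include *Nox4*, not above background with NEXN-S437E, while the filled points of the angiotensin lists are few.

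The genes whose values over the 6 arrays lay closest to those of *Agt*, after each gene's mean was taken out, were *Hnmt* (histamine N-methyltransferase), *9530026P05Rik* and *Osgepl1*. Their root mean square distances were 0.06, 0.06 and 0.07, against a median of 0.43 over 13732 genes. The closest to *Agtr1a* were *Ltc4s* (leukotriene C4 synthase), *Sema4d* (a semaphorin) and *Slc36a2* (an amino acid transporter), at 0.05, 0.06 and 0.07 against a median of 0.50. All 6 genes were higher with NEXN-S437E, as the measure of likeness makes them, with differences of 0.68 to 0.81. *Agt* and *Agtr1a* had different profiles, since *Agt* was highest in NEXN-S437E replicate 2 and *Agtr1a* in NEXN-S437E replicate 1.

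**Figure D5:**
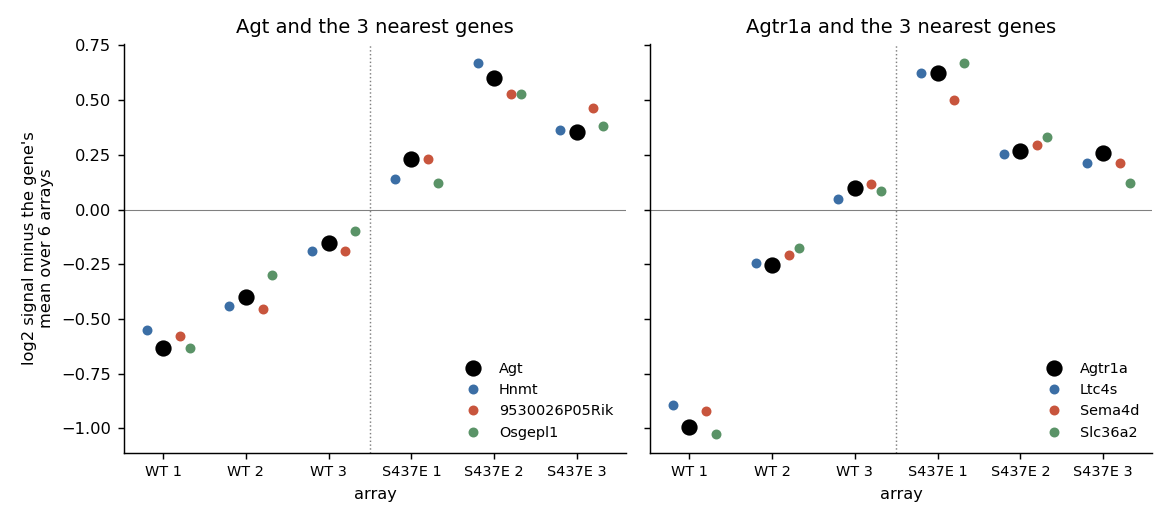
Log2 signal minus the gene's mean over 6 arrays (vertical axis) on each array (horizontal axis) for *Agt* (left, large points) and *Agtr1a* (right, large points) with the 3 nearest genes of each in colour, slightly offset for legibility. *Agt* spans -0.63 to 0.60 and *Agtr1a* -0.99 to 0.62, and their neighbours lie close to them on each array.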

How the data were processed

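RNA from the myocardium of 6 mice was labelled with 1 dye and hybridised to Agilent SurePrint G3 Mouse Gene Expression v2 arrays on 1 slide, read in 1 scan. The authors extracted the scans with Feature Extraction 10.7.1.1 and deposited, for each array, linear intensity values, background-subtracted and not yet scaled across arrays. A series table that the authors deposited holds these signals per probe (99.8% matched the spots, relative tolerance 0.001) and normalized log2 values whose distribution is the same on every array. The software of that normalization is not given in the sources used here.

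Control spots were left out, log2 signals were reduced by each array's 75th percentile over all non-control spots, outlier spots were then dropped, and a probe's spots were averaged. Tests covered probes detected well above background on every array of a group, with limma 3.58.1 in R 4.3.3 (data.table version 1.17.8), with Benjamini-Hochberg adjustment over all tested probes. Thresholds were an adjusted p of 0.05, and the 2-fold change with an unadjusted p of 0.05 that the study used. The limma fit was tested on simulated data. Figures and sequences were made with Python 3.11.15, pandas 2.3.3, numpy 2.4.6 and matplotlib 3.10.9. Precision is limited by the number of arrays and by signal over background, and no member spot was saturated or an outlier.

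The members, gene lists, rules and tests were chosen with earlier results of these data known. The rule named all members. From each related list, with the probe of highest mean for each gene, it named up to 6 genes with the smallest unadjusted p without overlap and up to 2 with the largest p. It also named the 3 genes nearest to each of the 2 members with the largest difference, and gave marker lists as counts. Sample labels give the group and a replicate number, and nothing says that a number is shared between groups. Promoter windows come from RefSeq tables (GRCm38.p6), in which 8 of 9 members were found. The 19 alternatives changed the normalization, background correction, filters, outliers, test, blocks, weights and probes per gene, or left out 1 array each. No value of the authors' own comparisons was used.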

Additional observations from a re-analysis of the deposited data

How the results depend on the processing

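*Agt*, *Ace*, *Agtr1a* and *Edn1* kept their direction in all 19 alternatives. Across all 9 tested member probes, 137 values kept direction and side of the unadjusted p of 0.05, 12 were no longer past it, 2 newly passed it and 18 changed sign, all in probes of *Ednra*, *Ednrb* and *Ece1*. The cause of these shifts was not tested.

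Member counts moved in these settings. Weighting the arrays by quality brought 3 members past the adjusted p (*Agt*, *Agtr1a* and *Ace*, adjusted p = 0.00648, 0.0353 and 0.0432, limma), with 4 probes lower at the unadjusted p, while 3820 of all probes passed. The methods' t-test left 1 member higher (*Agt*) and 0 lower, with 0 probes past an adjusted p and 412 past 2-fold with an unadjusted p. With slide row as a block, 0 were lower and 1 passed 2-fold (*Agtr1a*), as did 799 of all probes, and 24 probes passed the adjusted p. When 1 array was left out, 1 to 2 members were higher and 0 to 2 lower, 0 to 1 passed 2-fold (*Agtr1a*, without NEXN-WT replicate 3) and 0 passed an adjusted p. Over all probes, 37 passed the adjusted p and 579 passed 2-fold with an unadjusted p. These became 24 and 183 with normexp, 7 and 2269 without the filter, 20 and 345 with detection required on all 6 arrays, 80 past the adjusted p with an intensity trend, and 12 to 128 and 361 to 900 when 1 array was left out.

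Probe A_52_P577662 of *Ednrb* turned to -0.0028 after quantile normalization, -0.074 with the detected percentile, -0.089 with normexp, -0.0032 in the deposited values and -0.075 with array weights. Probe A_55_P2089710 turned to 0.089 with normexp and 0.19 with slide row as a block. For *Ece1*, A_51_P105725 turned to -0.00044 with the detected percentile and -0.059 with array weights, and A_52_P635278 to 0.23 with slide row as a block. When 1 array was left out, *Ednra* ranged from -0.24 to 0.030, A_55_P2089710 from -0.40 to -0.00029, A_52_P577662 from -0.10 to 0.11 and A_52_P635278 from -0.20 to 0.035.

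With the replicate number as a block, 37 probes passed the adjusted p and no member's call changed (*Agt* 0.79, adjusted p = 0.195, limma). Same-numbered arrays deviated with correlations of -0.15, -0.03 and -0.18, and no NEXN-WT array correlated best with its own number, so the samples share only a number. Dim probes limit what can be said of *Agtr2* and *Edn3*.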

Other observations

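Other vasoactive systems were listed after the values had been seen, so the counts only describe these arrays. Of 19 genes, 17 were tested, 2 were higher and 6 lower at an unadjusted p of 0.05 (limma), against 10.1% and 7.91% over all genes, and none passed the adjusted p with all 6 arrays. The higher genes were *Avpr1a*, the vasopressin V1a receptor (0.62, adjusted p = 0.222), and *Ramp1*, the partner that makes the CGRP receptor (0.48, adjusted p = 0.242). Among the lower genes, *Prkg1*, cyclic GMP-dependent protein kinase, differed by -0.51 (adjusted p = 0.192), and *Gucy1a3*, a subunit of soluble guanylate cyclase, by -0.48 (adjusted p = 0.258). The partner subunit *Gucy1b3* and the natriuretic peptide receptor *Npr2* did not pass, with -0.13 and -0.02 (adjusted p = 0.704 and 0.958). *Ptgis*, prostacyclin synthase, differed by -0.90 (adjusted p = 0.168), *Ptger4*, a prostaglandin E2 receptor, by -0.47 (adjusted p = 0.282), and *Ddah2*, which degrades an inhibitor of nitric oxide synthase, by -0.33 (adjusted p = 0.259). *Ddah1*, an enzyme of the same kind, differed by -2.17 (adjusted p = 0.168), with NEXN-WT replicate 1 at 1.49 and the other NEXN-WT arrays at -1.0 and -0.97, and by -1.34 without that array, where it passed the adjusted p (0.021). Endothelial nitric oxide synthase (*Nos3*) and adrenomedullin (*Adm*) differed by -0.05 and 0.19 (adjusted p = 0.899 and 0.545). When 1 array was left out, the unadjusted p was over 0.05 in 5 of 6 fits for *Ptger4* (limma). It was over 0.05 in 4 fits for *Ddah2*, 3 for *Gucy1a3*, 2 each for *Avpr1a* and *Ramp1* and 1 for *Prkg1*. For *Ptgis* and *Ddah1* it was over 0.05 in 0. Without NEXN-WT replicate 1, 2 genes of this list were higher and 5 lower, and 0 and 1 with slide row as a block.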
